A study of Mus musculus with 4 samples.

Results

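Smooth muscle contractile genes are described here from single-cell RNA sequencing of mouse brain cells. The 10 genes were taken by symbol from the 55487 genes of the count matrices: Acta2, Myh11, Tagln, Cnn1, Myl9, Des, Pln, Mylk, Tpm2 and Smtn. Each symbol matched 1 row. The study had 4 libraries, 1 of WT Cre and 1 of EC-K4KO mice at a young and again at an old age, and asked what loss of the transcription factor KLF4 from the endothelium does to the aging brain vasculature. All mice carried Cdh5-Cre, a Cre recombinase driven by the VE-cadherin promoter of endothelial cells, on a C57BL/6J background. EC-K4KO mice carried floxed Klf4 in addition, and WT Cre mice were littermates without the deletion. By the study's methods, Cre was induced with tamoxifen in young adults and the controls were treated identically. The labels list no other drug. Mice of both sexes were used, and how many mice went into a library is not given in the sources used here. The labels name a purification of endothelial cells or nuclei by sorting or by a surface marker without tying it to an assay, and the study's methods describe none for these libraries, so it is not known whether the mural cells counted here passed through one.

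The 4 libraries held 30655769 to 88812581 UMIs (unique molecular identifiers, each read as 1 captured transcript), and 4146 to 6555 cells per library were kept, 20737 in all. Although the labels name brain endothelial cells, endothelial-like cells made up 61.0% of kept cells in young WT Cre, 50.8% in young EC-K4KO, 39.2% for old WT Cre and 46.0% for old EC-K4KO. Klf4, the targeted gene, was not lower in the libraries labelled EC-K4KO. Its level in endothelial-like cells, as CPM (UMIs of a gene per 1000000 UMIs of those cells), was 1712 for young WT Cre against 3281 for the library labelled young EC-K4KO. It was 2099.9 for old WT Cre against 3296 for the library labelled old EC-K4KO. The sources used here do not say which stretch of Klf4 the floxed allele removes, and UMIs from outside it would not report the deletion, so these counts do not check it. Whether genotype labels were exchanged between libraries was not tested either, and with exchanged labels every ratio of EC-K4KO over WT Cre below would have the opposite sign. Genotype names below are the labels of libraries. The young libraries shared 42 barcodes, 7 of them among kept cells, and every other pair of libraries shared 7 to 15. Each group was 1 library, so no test between groups was possible and no p-value is given. Intervals are 95% and cover counting error only.

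Contraction of vascular smooth muscle rests on myosin filaments pulling on actin filaments. A rise in cytosolic calcium activates myosin light chain kinase through calmodulin, the kinase phosphorylates the regulatory light chain, and the myosin motor then cycles. In the brain these cells wrap arteries and arterioles and set their diameter, whereas pericytes sit on capillaries and carry less of this machinery. The contractile genes are known targets of serum response factor and its coactivator myocardin, which act through CArG boxes in the regulatory DNA.

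Positions are given for GRCm38, the build in the submitters' processing notes, from the GENCODE M21 annotation. The motor genes are Acta2 (smooth muscle alpha actin, chr19:34241090-34255590, minus strand), Myh11 (smooth muscle myosin heavy chain, chr16:14194535-14291372, minus), Myl9 (regulatory light chain, chr2:156775420-156781658, plus) and Mylk (myosin light chain kinase, chr16:34745210-35002420, plus). The thin filament genes are Tagln (transgelin, chr9:45929619-45936058, minus), Cnn1 (calponin, chr9:22099216-22109630, plus), Tpm2 (beta tropomyosin, chr4:43514711-43523765, minus) and Smtn (smoothelin, chr11:3517523-3540612, minus). Des encodes the intermediate filament desmin (chr1:75360329-75368579, plus), and Pln encodes phospholamban, an inhibitor of the calcium pump of the sarcoplasmic reticulum (chr10:53337667-53345987, plus). None overlapped another annotated gene on its strand.

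Promoter sequence was available from RefSeq (GRCm38.p6) for 8 of the 10 genes, all but Myh11 and Tagln. The 250 bases before each start were searched for the CArG box, the site of serum response factor, whose 10 letters read the same way on both strands. With every letter matching, it was found before Myl9 alone, 1 of 8, and in 1.47% of all 32851 promoters. With at most 1 of the 6 middle letters other than A or T, it was found in 2 of 8, Acta2 and Myl9, and in 8.59% of all promoters. The 4 boxes are printed because these sites are the sequence feature that contractile genes are best known for. Each window is 5′ to 3′ on the strand of the gene, with the box in capitals and 10 bases on either side.
Acta2, 84 bases before the start, chr19:34255438-34255467, minus: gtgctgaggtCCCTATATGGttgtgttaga
Acta2, 34 bases before the start, chr19:34255388-34255417, minus: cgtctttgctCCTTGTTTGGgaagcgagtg
Myl9, 161 bases before the start, chr2:156775293-156775322, plus: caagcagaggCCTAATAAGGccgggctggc
Myl9, 99 bases before the start, chr2:156775355-156775384, plus: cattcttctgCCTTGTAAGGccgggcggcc
GENCODE places the first exon of Acta2 further upstream, so that both Acta2 windows lie within its annotated 5′ UTR, while the Myl9 windows lie in no annotated exon. A match describes these letters and is not a measured binding site, and no match says nothing of sites elsewhere.

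Cell classes were called from markers that include none of the 10 genes, and the 10 genes were kept out of the genes used for clustering. So were 18 other contractile and cytoskeletal genes, Actg2 among them. There were 305 smooth muscle-like cells from young WT Cre, 1138 from young EC-K4KO, 457 from old WT Cre and 253 from old EC-K4KO, and their 12 class markers summed to 6022, 6211, 6230 and 6088 CPM. They formed 2 clusters, 1 led by Rasl11a and 1 led by Actg2. A further cluster of 628 cells, led by Rgs5, had all 12 smooth muscle markers and 3 of 10 pericyte markers, among them Ndufa4l2, Higd1b and Cox4i2 near the top of its leading genes. It fitted neither class and is described under its leading gene. Pericyte-like cells numbered 187, 194, 135 and 99 in the same order.

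**Figure D1:**
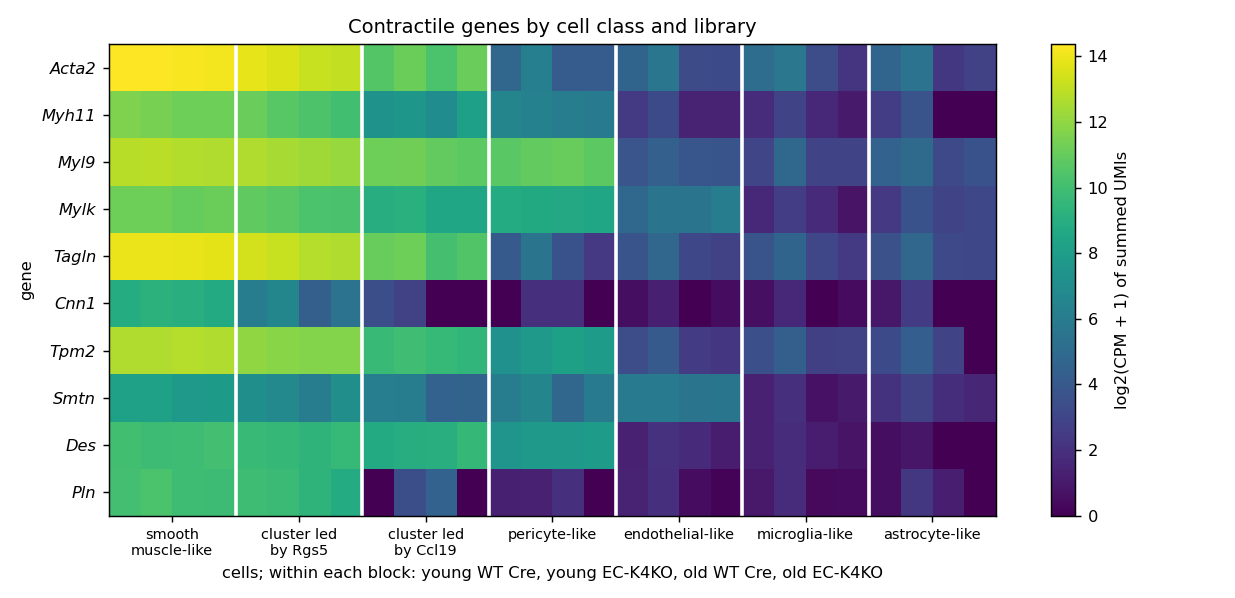
Heat map of the 10 contractile genes (rows) in 7 groups of cells (blocks), each block holding the 4 libraries in the order young WT Cre, young EC-K4KO, old WT Cre, old EC-K4KO. Colour is log2(CPM + 1) of summed UMIs and is to be read along a row. Within each library every gene is brightest in smooth muscle-like cells and next in the cluster led by Rgs5, Myl9 and Mylk stay bright in pericyte-like cells, and Smtn is brighter in endothelial-like cells (drawn without a cluster of 61 cells led by Gkn3 with Rgs5) than in microglia-like and astrocyte-like cells.

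In smooth muscle-like cells the 10 genes together took 5 to 6 of every 100 UMIs. Over all of these cells, none of the 10 differed by 1.5-fold in any pair of libraries compared below. Their sum was 58564 CPM for young WT Cre (58287 to 58842 by exact Poisson limits), 59420.4 CPM for young EC-K4KO (59279.6 to 59561), 55534 CPM for old WT Cre (55272 to 55796) and 52010.5 CPM for old EC-K4KO (51646 to 52377). Both young libraries were above the old ones, by an amount that exceeds counting error but has no replicate library to set it against. That order was lost among those of the same cells that passed a stricter cell filter, described with the age comparison, where the sums were 52348, 47648, 51260.3 and 47618 CPM.

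Among the motor genes, Acta2, the actin of the contractile filaments, was at 20908 CPM for young WT Cre, 21299 for young EC-K4KO, 19199 for old WT Cre and 17634 for old EC-K4KO. Myh11, the heavy chain that defines the smooth muscle motor, was at 3049, 2793, 2367 and 2338 CPM in the same order. Both were higher in each young library than in either old one. Myl9, the light chain whose phosphorylation starts contraction, was at 7222, 7524, 6686 and 6410.4 CPM and had the same order of ages. Mylk, the kinase that phosphorylates it, was at 2379, 2378, 2049 and 2259 CPM, and here the old EC-K4KO library lay nearer to the young ones than old WT Cre did.

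Of the thin filament genes, Tagln, an actin-bundling protein, was at 15682 CPM for young WT Cre, 15905 for young EC-K4KO, 15597 for old WT Cre and 14212 for old EC-K4KO, so that old EC-K4KO alone stood apart. Cnn1, which binds actin and damps the myosin motor, was at 483 CPM (458 to 509), 604 CPM (590 to 619), 518 CPM (493 to 544) and 441 CPM (408 to 476), highest in young EC-K4KO and lowest in old EC-K4KO. Tpm2, which lies along the actin filament, was at 6412, 6430.3, 6959 and 6497 CPM, highest in old WT Cre. Smtn, a protein of contractile stress fibers, was at 303 CPM in both young libraries (283 to 323 and 293 to 313) and at 222 CPM (206 to 239) and 225 CPM (202 to 250) in the old ones. Over these cells Smtn was lower in both old libraries, and its levels within an age did not differ beyond counting error. Among the cells that passed the stricter filter, 43 of them in young WT Cre, its log2 ratio of EC-K4KO over WT Cre was -0.57 for the young libraries and -0.30 for the old ones, and that of old over young was -0.51 in WT Cre and -0.25 in EC-K4KO.

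Des was at 1027, 913, 976 and 1078 CPM, with old EC-K4KO highest and young EC-K4KO lowest. Pln was at 1099.9, 1272, 961 and 916 CPM, with young EC-K4KO highest. Des was the one gene whose level in old EC-K4KO was above that in every other library, although its interval there (1026 to 1131) overlapped that of young WT Cre (990 to 1064).

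**Figure D2:**
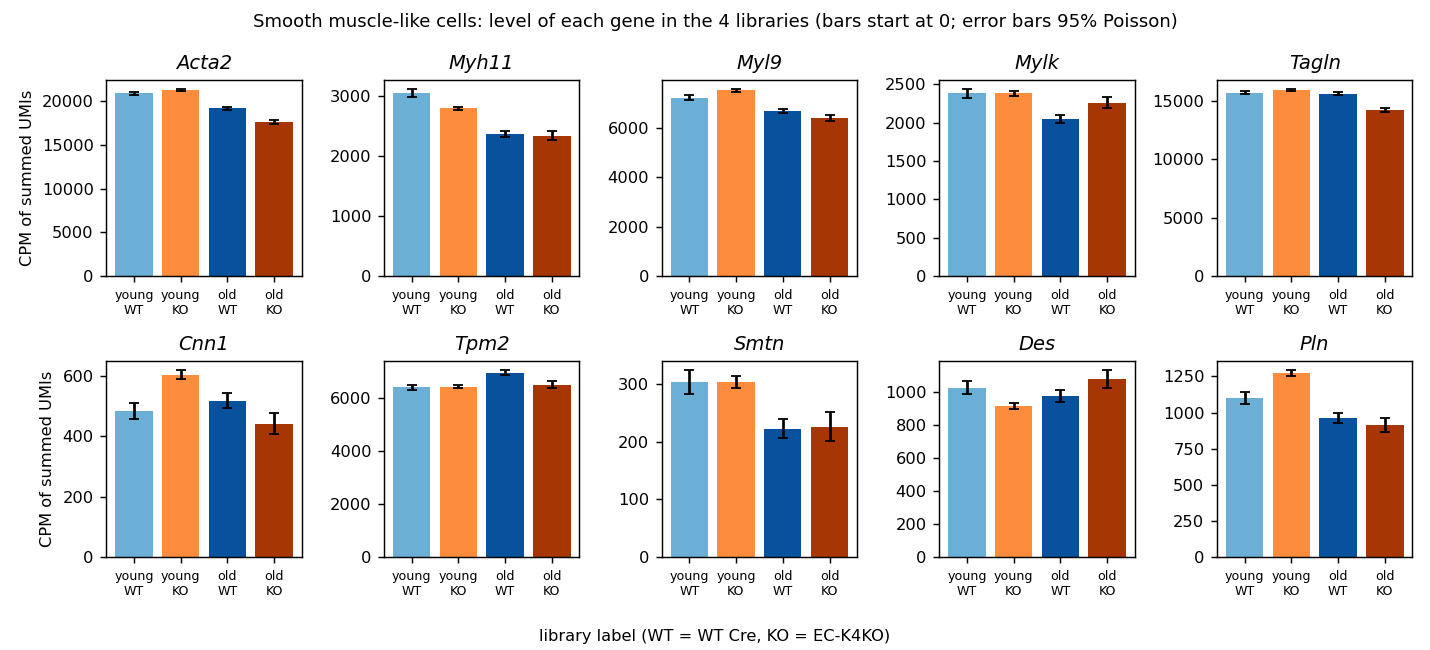
Bar charts of the level (CPM of summed UMIs, axes starting at 0) of each of the 10 genes in smooth muscle-like cells of the 4 libraries, with 95% Poisson intervals as error bars. Bars of one gene differ by less than 1.5-fold in each pair compared in the text. Myh11 and Smtn are lower in both old libraries (2367 and 2338, and 222 and 225 CPM), and Cnn1 and Pln are highest in young EC-K4KO (604 and 1272 CPM).

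The comparison of EC-K4KO with WT Cre asks whether mural cells differ where the endothelial deletion is labelled. Among genes that averaged 10 CPM or more, 3.12% of 7726 differed by 1.5-fold in smooth muscle-like cells of the young pair, and 0 of the 10 contractile genes did. Cnn1 had the highest log2 ratio of EC-K4KO over WT Cre, 0.32 (0.24 to 0.41), followed by Pln at 0.21 (0.15 to 0.27), and Des had the lowest, -0.17 (-0.23 to -0.11). Myh11 was at -0.13 (-0.16 to -0.09), and the other 6 genes lay between -0.00 and 0.06. The median of the 10 was 0.01, against -0.03 over all genes tested. With the 10 genes and the 18 other contractile and cytoskeletal genes among those used for clustering, Cnn1 was past 1.5-fold in this pair, at 0.59.

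In the old pair, 0 of the 10 genes differed by 1.5-fold, against 7.76% of 7601 genes. Cnn1 was now the lowest, at a log2 ratio of -0.23 (-0.37 to -0.10), with Tagln at -0.13 (-0.16 to -0.11) and Acta2 at -0.12 (-0.14 to -0.10). Des and Mylk were the highest, both at 0.14 (0.05 to 0.23 and 0.08 to 0.20). The median was -0.06, against 0.02 over all genes tested. Klf4 itself was at 932 and 899 CPM in smooth muscle-like cells of the young pair and at 983 and 771 CPM in those of the old pair.

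The comparison of old with young addresses aging within each genotype label. It uses the same 4 libraries as the comparisons above and is not independent of them. In WT Cre, 0 of 10 genes differed by 1.5-fold, against 10.2% of 7688 genes, and 8 of 10 were lower in the old library. Smtn was lowest at a log2 ratio of old over young of -0.45 (-0.59 to -0.30), then Myh11 at -0.37 (-0.41 to -0.32) and Mylk at -0.22 (-0.26 to -0.17). Tpm2 was higher at 0.12 (0.09 to 0.15), as was Cnn1 at 0.10 with an interval that reached 0.

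In EC-K4KO, 0 of 10 genes differed by 1.5-fold, against 11.1% of 7660 genes, and again 8 of 10 were lower in the old library. Pln was at -0.47 (-0.55 to -0.39), Cnn1 at -0.46 (-0.57 to -0.34), Smtn at -0.43 (-0.60 to -0.27), Acta2 at -0.27 (-0.29 to -0.25) and Myh11 at -0.26 (-0.31 to -0.21), while Des was higher at 0.24 (0.16 to 0.32). The medians of the 10 genes were -0.12 in WT Cre and -0.24 in EC-K4KO, against -0.04 and 0.00 over all genes tested. The difference in the sum between ages depended on which cells were kept. Its log2 ratio of old over young was -0.08 in WT Cre and -0.19 in EC-K4KO. Over those of the same cells that also passed a stricter cell filter (from 1000 genes and 2000 UMIs, with up to 5% mitochondrial UMIs), 43, 135, 164 and 69 in number, it was -0.03 and -0.00093. With the cells that passed this filter clustered anew, it was 0.12 and 0.05, but the smooth muscle-like class then also took in cells of the cluster led by Rgs5, 37 of its 81 cells in young WT Cre, 79 of 214 in young EC-K4KO, 45 of 209 in old WT Cre and 12 of 80 in old EC-K4KO. In that new clustering Cnn1 was at 0.88 for old over young WT Cre, past 1.5-fold, and with the cells as called under this filter Des was past it for old over young EC-K4KO, at 0.68. As a mean of per-cell CPM, Smtn was past it for old over young WT Cre, at -0.59, and Cnn1 for old over young EC-K4KO, at -0.61. The 10 pericyte markers moved with age in smooth muscle-like cells, at a sum of 697, 745, 1049.8 and 1269.9 CPM, with 1 of 10 at 0 UMIs in young WT Cre and none at 0 elsewhere. The part of pericyte RNA or cells in the age differences was not tested.

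**Figure D3:**
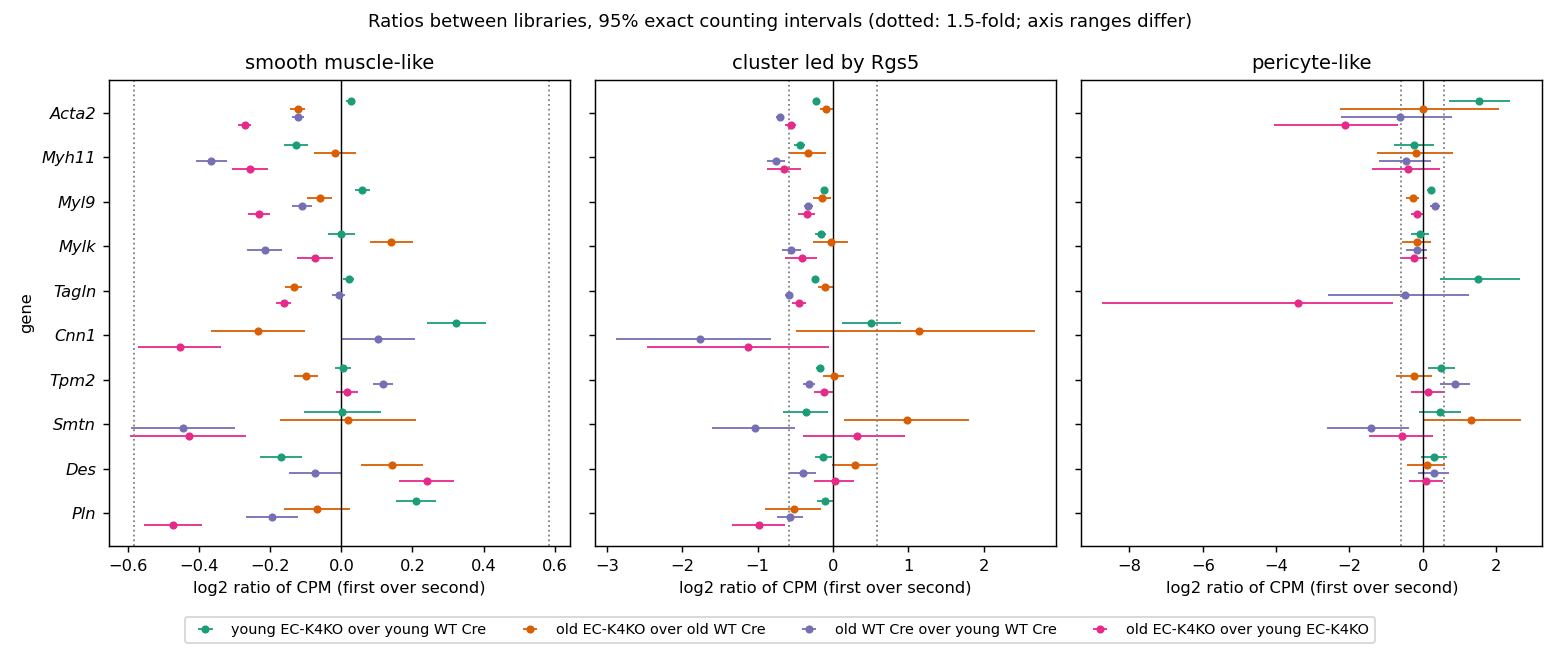
Log2 ratio of CPM for each gene (rows) in smooth muscle-like cells, the cluster led by Rgs5 and pericyte-like cells (panels), with 1 colour for each of the 4 pairs of libraries and 95% exact counting intervals. Dotted lines mark 1.5-fold, axis ranges differ between panels, and genes under a mean of 10 CPM are not drawn. All points of smooth muscle-like cells lie inside the dotted lines, while Acta2, Myh11, Tagln, Cnn1 and Smtn of the cluster led by Rgs5 lie beyond them for old over young WT Cre.

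The 2 smooth muscle-like clusters differed in these genes in every library. Their number depended on the setting, since the stricter filter gave 1 cluster of 584 cells and a finer clustering gave 3, of 1038, 890 and 512 cells. For the cluster led by Rasl11a (187, 702, 286 and 165 cells), the sum of the 10 genes was 52107 CPM for young WT Cre, 52206 for young EC-K4KO, 47036 for old WT Cre and 42758 for old EC-K4KO. For the one led by Actg2 (118, 436, 171 and 88 cells), it was 67293, 69368, 65520 and 65982 CPM, above the other cluster in each library. Cnn1 differed most between them. It was at 259, 325, 164 and 227 CPM in the cluster led by Rasl11a and at 785, 990.3, 935 and 765 CPM in the cluster led by Actg2. Cnn1, Tpm2, Tagln and Acta2 were among the leading genes of that cluster, so the higher level there is a description of how the cluster stood out. Both clusters held cells of all 4 libraries.

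Differences between ages were larger in the cluster led by Rasl11a. There, Smtn was at a log2 ratio of old over young WT Cre of -0.76 (-1.01 to -0.51) and Cnn1 at -0.66 (-0.89 to -0.44), 2 of 10 genes past 1.5-fold against 15.8% of all genes in either direction (9.74% lower). In EC-K4KO only Pln was past it, at -0.68 (-0.80 to -0.57), 1 of 10 against 16% of all genes in either direction (7.37% lower). The cluster led by Actg2 had 0 of 10 genes past 1.5-fold in either age comparison, against 17% in WT Cre and 18.1% in EC-K4KO. The log2 ratio of the sum of old over young was -0.15 in WT Cre and -0.29 in EC-K4KO for the cluster led by Rasl11a, and -0.04 and -0.07 for the cluster led by Actg2. Whether the clusters differ in this was not tested. Between genotype labels 0 of 10 genes passed 1.5-fold in either cluster, against 5.63% and 13.8% of all genes in the cluster led by Rasl11a (young and old pair) and 9.49% and 18.1% in the cluster led by Actg2. In the old pair Cnn1 was higher in EC-K4KO in the cluster led by Rasl11a, at 0.47 (0.20 to 0.74), and lower in the cluster led by Actg2, at -0.29 (-0.45 to -0.14).

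The share of smooth muscle-like cells with a UMI was compared after each cell was thinned to 1000 UMIs, since the median depth was 9276, 9413, 6445 and 5753 UMIs per cell. Acta2 was detected in at least 99.8% of cells of every library, and Tagln in at least 99.2%. Smtn was detected in 25.2% (20.5 to 30.5) of young WT Cre cells, 26.3% (23.7 to 28.9) of young EC-K4KO, 16.6% (13.3 to 20.4) of old WT Cre and 16.6% (12.2 to 21.8) of old EC-K4KO. The intervals of the young libraries lie above those of old WT Cre, and that of old EC-K4KO overlaps the one of young WT Cre. Cnn1 was detected in 29.5%, 36.7%, 24.7% and 25.3%, highest in young EC-K4KO, and Des in 56.4%, 53.3%, 55.1% and 64.4%, highest in old EC-K4KO. Unthinned, Smtn was seen in 82.6%, 83.6%, 61.3% and 59.3% of cells and Cnn1 in 74.4%, 78.6%, 56.2% and 58.9%. Microglia-like cells, which should lack both genes, had thinned shares of at most 0.523% for Smtn and 0.348% for Cnn1 at median depths of 5516, 5609, 5296 and 4616 UMIs.

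Differences between ages were larger in the cluster led by Rgs5, where the 10 genes summed to 42161, 36473, 28625 and 26894 CPM, than in smooth muscle-like cells. For EC-K4KO this did not hold with the contractile genes among those used for clustering, and whether the classes differ in it was not tested. The cluster led by Rgs5 held 187, 262, 131 and 48 cells. Acta2 was at 14908 CPM for young WT Cre, 12733 for young EC-K4KO, 9155 for old WT Cre and 8618 for old EC-K4KO, and Tagln at 10644, 9046, 7089 and 6608 CPM. Myh11 was at 2214, 1629, 1311 and 1039 CPM. All 3 were ordered the same way, with young WT Cre highest and old EC-K4KO lowest. Pln followed that order too, at 969.7, 897, 653 and 455 CPM. Myl9 was at 6384, 5887, 5092 and 4616 CPM, Mylk at 1852, 1651, 1264 and 1236 CPM, and Tpm2 at 4134, 3650.4, 3329 and 3356 CPM. Des was at 849, 776, 644 and 787 CPM, and the sparse Smtn at 139.7, 109, 68.3 and 135 CPM. Cnn1, the gene of the cluster led by Actg2, was nearly missing here, at 66.4, 94.3, 19.5 and 43.0 CPM, or 13.7%, 15.6%, 3.76% and 9.76% of its smooth muscle-like level.

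For old over young WT Cre, all 10 genes were lower in this cluster, and 5 of 10 were lower by 1.5-fold, against 11.8% of 8419 genes tested (25.1% in either direction). They were Cnn1 at a log2 ratio of -1.77 (-2.88 to -0.82), Smtn at -1.03 (-1.60 to -0.51), Myh11 at -0.76 (-0.88 to -0.63), Acta2 at -0.70 (-0.75 to -0.66) and Tagln at -0.59 (-0.64 to -0.53). For old over young EC-K4KO, 8 of 10 were lower and 3 of 10 were lower by 1.5-fold, against 14.3% of 8263 genes (38.6% in either direction). They were Cnn1 at -1.13 (-2.47 to -0.06), Pln at -0.98 (-1.34 to -0.64) and Myh11 at -0.65 (-0.88 to -0.42). Between genotype labels, 0 of 10 passed 1.5-fold in the young pair, against 11.3% of 8387 genes, with 9 of 10 lower in EC-K4KO. In the old pair 2 of 10 were higher by 1.5-fold, Cnn1 at 1.14 (-0.49 to 2.68) and Smtn at 0.99 (0.15 to 1.80), against 22.4% of 8245 genes, so the count was no larger than for genes at large.

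Other values moved with these differences. The 10 pericyte markers summed to 5684 CPM for young WT Cre, 7488 for young EC-K4KO, 10302 for old WT Cre and 11016 for old EC-K4KO, while the 12 smooth muscle markers summed to 5698, 5412, 5038 and 5096 CPM. No marker of either list was at 0 in any library. The 16 immediate early and dissociation genes, which tissue digestion is known to induce, summed to 9067, 16149.7, 21953 and 28283 CPM, and 16 of 16 were higher by 1.5-fold in the old WT Cre library than in the young one, against 13.3% of all genes. Among cells with a share of pericyte marker UMIs at or below the median of the cluster, the log2 ratio of the sum of the 10 genes for old over young WT Cre was -0.15, against -0.56 over the whole cluster, and for EC-K4KO -0.29 against -0.44. Among the cells above the median it was -0.42 and 0.09. The median was that of all 4 libraries together, so the sides need not hold like numbers of cells of each library. Old EC-K4KO had 48 cells in the whole cluster. With the 10 genes and the 18 other contractile and cytoskeletal genes among those used for clustering, the matching cluster gave -0.15 for both ages. At a finer clustering the matching clusters gave -0.22 and -0.30. These were not the same cells, since the first held 838 cells, 244 of them smooth muscle-like in the clustering used here, and the second 831, with 225. The part of digestion and of the mix of cells in these differences was not tested further.

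**Figure D4:**
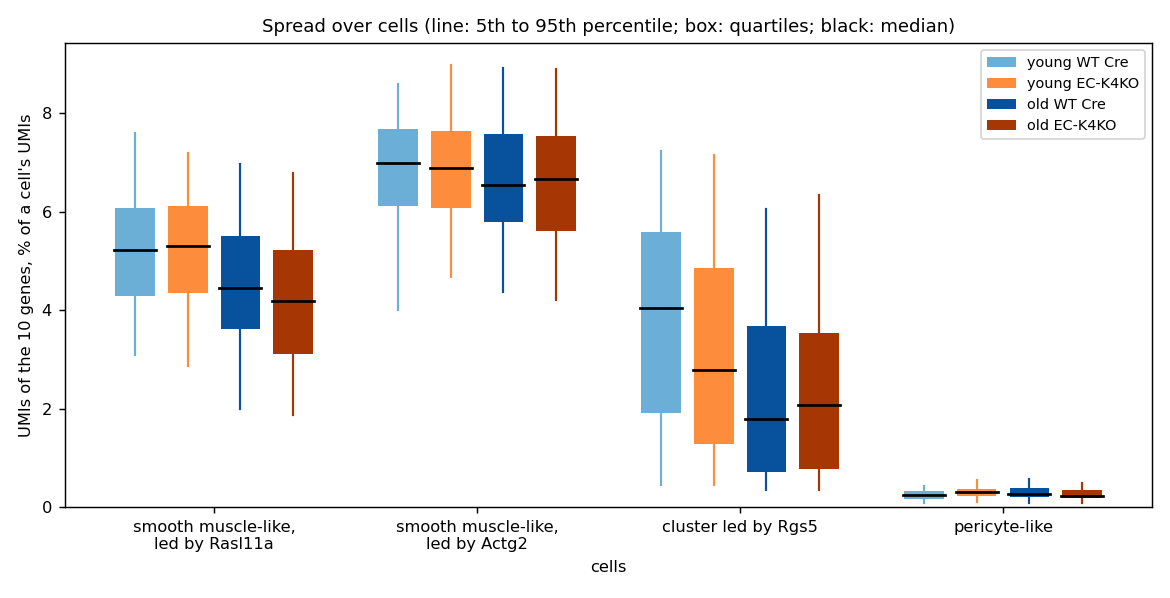
Share of a cell's UMIs that came from the 10 genes (percent, axis starting at 0) in both smooth muscle-like clusters, the cluster led by Rgs5 and pericyte-like cells, by library. Lines run from the 5th to the 95th percentile over cells, boxes span the quartiles and black bars are medians. The cluster led by Actg2 is highest (medians of 6.55 to 6.98%), pericyte-like cells are lowest (0.234 to 0.309%), and the cluster led by Rgs5 spans nearly the whole range between them.

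Cells varied more within the cluster led by Rgs5 than within smooth muscle-like cells. The median share of UMIs from the 10 genes in smooth muscle-like cells was 5.85%, 5.86%, 5.39% and 5.004% in the order of libraries above. The 95th percentile was 2.57, 2.61, 3.40 and 3.92 times the 5th, so the spread was wider in the old libraries, where cells were also shallower. The cluster led by Rgs5 had medians of 4.05%, 2.79%, 1.79% and 2.08%, and the 95th percentile was 16.04, 16.2, 17.0 and 18.1 times the 5th. Some of its cells lay at the level of smooth muscle-like cells and others near that of pericyte-like cells.

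Across smooth muscle-like cells thinned to 1000 UMIs, the 10 genes were weakly related. The median Spearman rho over 45 pairs was 0.113 in young WT Cre (305 cells), 0.0922 in young EC-K4KO (1138 cells), 0.135 in old WT Cre (457 cells) and 0.166 in old EC-K4KO (253 cells). Acta2 and Tpm2 were the most alike pair in every library, at 0.410, 0.429, 0.555 and 0.627. Among cells of the cluster led by Rgs5, Acta2 and Tagln were the most alike, at 0.782, 0.857, 0.853 and 0.780. The points are cells of 1 library and share its sparse counts, so these values are a description. The summed share of the 10 genes was lower in smooth muscle-like cells with a higher share of immediate early UMIs, at a rho of -0.380, -0.284, -0.291 and -0.211.

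Pericyte-like cells held part of the machinery. Myl9 was at 1659.7, 1944, 2107 and 1742 CPM, which was 23.0%, 25.8%, 31.5% and 27.2% of its smooth muscle-like level. Mylk was at 453, 430, 406 and 364 CPM, Des at 178, 221, 220 and 237 CPM, and Tpm2 at 156, 221, 288 and 245 CPM. Smtn was at 67.4, 93.5, 25.4 and 63.4 CPM, or 22.3%, 30.8%, 11.4% and 28.2% of its smooth muscle-like level, on 47, 63, 9 and 15 UMIs. These 5 genes were above microglia-like cells in every library. After thinning, a Myl9 UMI was found in 80.7%, 80.9%, 84.4% and 87.9% of pericyte-like cells, at median depths of 3691, 3316, 2429 and 2238 UMIs, against 1.53%, 1.92%, 0.418% and 0.334% of microglia-like cells. Mylk was found in 28.3%, 32.0%, 35.6% and 29.3%, against at most 0.871%, and Smtn in 6.95%, 10.8%, 1.48% and 7.07%, against at most 0.523%.

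Cnn1, Pln, Acta2 and Tagln were nearly missing from pericyte-like cells, whereas Myh11 was read at a low level. Cnn1 had 0, 2, 1 and 0 UMIs and Pln 1, 1, 1 and 0 UMIs in all pericyte-like cells of a library. Where the count was 0, the limit was 4.30 CPM in young WT Cre and 12.7 CPM in old EC-K4KO. Acta2 was at 25.8, 74.2, 16.9 and 16.9 CPM and Tagln at 15.8, 44.5, 11.3 and 4.23 CPM. Thinned shares for Acta2 were 2.14%, 7.73%, 2.22% and 2.02%, against 2.15%, 5.75%, 0.920% and 0% in microglia-like cells. The Acta2 level in microglia-like cells was 33.9, 51.7, 9.49 and 3.74 CPM, above that of pericyte-like cells in young WT Cre and below it in the other libraries. The counting intervals of both classes overlapped in every library, and the pericyte-like level rested on 6 UMIs in old WT Cre and 4 in old EC-K4KO, so Acta2 of pericyte-like cells could not be told from background at this depth. Myh11 was at 93.2, 78.7, 67.7 and 59.2 CPM, against 2.53, 6.78, 2.14 and 1.02 CPM in microglia-like cells.

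Between libraries, pericyte-like Myl9 had a log2 ratio of EC-K4KO over WT Cre of 0.23 for the young libraries (0.11 to 0.34) and -0.27 for the old ones (-0.45 to -0.10). Its log2 ratio of old over young was 0.34 for WT Cre (0.21 to 0.48) and -0.16 for EC-K4KO (-0.32 to 0.00). For old over young WT Cre, Tpm2 was higher at 0.88 (0.48 to 1.28) and Smtn, with 47 and 9 UMIs, lower at -1.41 (-2.62 to -0.36), 2 of 8 genes tested past 1.5-fold against 32.8% of 8693 genes in either direction. In the young pair Acta2 and Tagln were past it, at 1.52 (0.72 to 2.39) and 1.496 (0.46 to 2.64), 2 of 8 against 21.1% of 9005 genes. The same 2 genes were lower in old than in young EC-K4KO, 2 of 8 against 33.5% of 8871 genes. Tagln, on 30 and 1 UMIs, was tested there through young EC-K4KO, and Acta2 could not be told from background, so these calls support no difference. Smtn was higher in the old pair at 1.32 (0.03 to 2.69), 1 of 7 against 30.5% of 8543 genes. These counts are near or below the shares of all genes. Over pericyte-like cells without a UMI of a smooth muscle marker, the 10 genes summed to 2625, 2638, 2782 and 2628 CPM, against 2651, 3112, 3148 and 2732 CPM over all pericyte-like cells. Immediate early genes differed widely between the libraries in pericyte-like cells, at 3101, 7871, 31340 and 19695 CPM, and their part was not tested.

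Another unnamed cluster, led by Ccl19, Il6 and Ccl11, held 18, 78, 71 and 22 cells. Its 10 genes summed to 7976, 9481, 6225 and 7413 CPM, between pericyte-like and smooth muscle-like cells. Des was closest to its smooth muscle-like level there, at 43.1%, 55.3%, 54.6% and 71.5% of it, while Cnn1 had at most 9.82 CPM and Pln at most 22.2 CPM. With so few cells no difference between its libraries is described.

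Outside mural cells the 10 genes were read at a low level that differed between libraries. In microglia-like cells they summed to 72.8 CPM for young WT Cre, 144 for young EC-K4KO, 35.8 for old WT Cre and 24.8 for old EC-K4KO. The top 1% of microglia-like cells held 6.94%, 5.30%, 38.9% and 38.4% of these UMIs, so in the old libraries few cells held much of the level. In astrocyte-like cells the 10 genes summed to 79.5, 159, 37.0 and 34.4 CPM, with the young EC-K4KO library highest in both classes. Smooth muscle-like cells and the cluster led by Rgs5 gave 10.02%, 17.2%, 8.49% and 6.30% of the UMIs of kept cells, the same order over the 4 libraries. RNA released from broken cells into all droplets would give the genes of 1 source like low shares of their source level within a class. Whether these levels came from it was not tested. In microglia-like cells the median over the 10 genes was 0.101%, 0.261%, 0.0860% and 0.0534% of the smooth muscle-like level, and Smtn was the highest in each library, at 0.501%, 0.932%, 0.276% and 0.453%.

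Endothelial-like cells differed from that pattern in Smtn and Mylk. Leaving out a cluster of 61 cells led by Gkn3 with Rgs5 among its leading genes, Smtn was at 58.0, 60.0, 45.1 and 47.5 CPM, which was 19.2%, 19.8%, 20.3% and 21.1% of its level in smooth muscle-like cells of the same library. Mylk was at 27.6, 45.2, 44.8 and 66.8 CPM, lowest in young WT Cre and highest in old EC-K4KO. The median of the 10 genes there was 0.148%, 0.256%, 0.0688% and 0.0782% of the smooth muscle-like level, near the medians of microglia-like cells. Smtn was found in 5.72% (4.88 to 6.66), 5.62% (4.86 to 6.45), 4.32% (3.51 to 5.27) and 4.20% (3.34 to 5.20) of all thinned endothelial-like cells, the small cluster included, with median depths of 6349, 9910.0, 4696 and 3768 UMIs, against 0%, 0.523%, 0% and 0% of microglia-like cells. At this thinned depth, a count of 0 allows up to 0.920% in young WT Cre, 0.251% in old WT Cre and 0.502% in old EC-K4KO. Unthinned, Smtn was seen in 0.920%, 1.74%, 0.334% and 0.334% of microglia-like cells. Without that cluster, Smtn was lower in the old libraries, at a log2 ratio of old over young of -0.36 (-0.50 to -0.23) in WT Cre and -0.34 (-0.48 to -0.20) in EC-K4KO, where the medians over all genes tested were -0.19 and -0.15, while the ratios between genotype labels were 0.05 (-0.04 to 0.14) and 0.07 (-0.10 to 0.24). Mylk was higher in the old libraries, at 0.70 (0.54 to 0.85) and 0.56 (0.44 to 0.69), and higher in EC-K4KO, at 0.71 (0.59 to 0.84) and 0.58 (0.42 to 0.73).

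**Figure D5:**
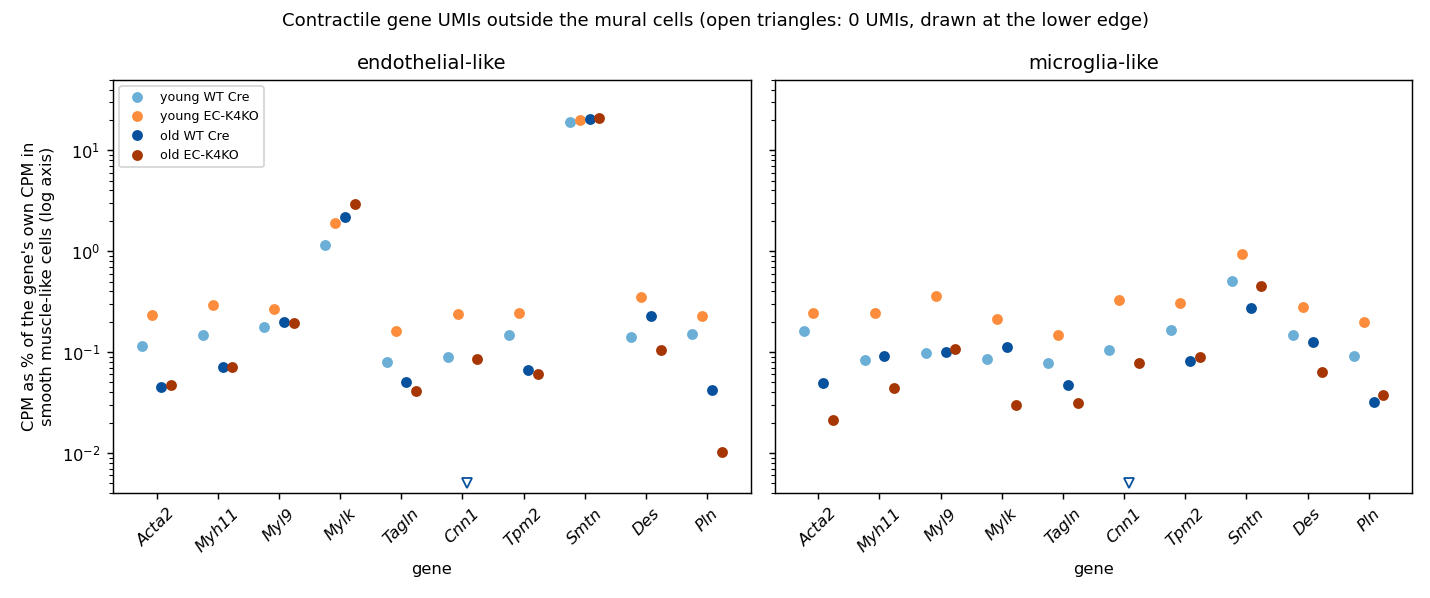
Level of each of the 10 genes in endothelial-like cells (left, without the cluster of 61 cells) and microglia-like cells (right) as a percent of its own level in smooth muscle-like cells of the same library, on a log axis. Dots are libraries and open triangles are genes with 0 UMIs. Most genes lie under 0.5% in both classes, whereas Smtn lies at 19.2 to 21.1% and Mylk above 1% in endothelial-like cells.

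The small endothelial-like cluster with Rgs5 (10, 31, 16 and 4 cells) held 4015, 4092, 5169 and 1408 CPM of the 10 genes, with Acta2 at 1180.4, 1359, 1668 and 176 CPM. It moved the endothelial-like sum from 153, 232, 129 and 148 CPM without it to 199.8, 308, 232 and 153 CPM with it. The top 1% of endothelial-like cells held 32.6%, 31.0%, 52.0% and 13.5% of the UMIs of the 10 genes in that class. Without the small cluster, 5 of 6 genes tested were higher by 1.5-fold in young EC-K4KO than in young WT Cre, against 1.22% of 8588 genes, with Acta2 at 1.02 (0.89 to 1.15). In the old pair 0 of 3 passed 1.5-fold, against 2.61% of 8225 genes. For old over young WT Cre 3 of 5 passed it, against 11.1% of 8469 genes, Mylk higher and both Acta2, at -1.47 (-1.76 to -1.20), and Tagln, at -0.68 (-1.001 to -0.37), lower. For old over young EC-K4KO 3 of 5 were lower by it, against 5.81% of 8394 genes, Acta2 at -2.55 (-2.87 to -2.25), Tagln at -2.14 (-2.53 to -1.77) and Myl9 at -0.72 (-0.99 to -0.45). Tpm2 was at 9.54 CPM in young WT Cre and reached the mean of 10 CPM through young EC-K4KO, and Acta2 and Tagln were under 10 CPM in both old libraries and reached it through the young ones. Acta2, at 24.3 and 49.2 CPM in the young pair, was below its 33.9 and 51.7 CPM in microglia-like cells, and Tagln, at 12.5 and 25.5 CPM, was close to its 12.1 and 23.7 CPM there, so for these 3 genes the counts support no difference between genotype labels or ages. Myl9, at 12.8, 20.2, 13.3 and 12.3 CPM, stood against 7.07, 27.1, 6.74 and 6.81 CPM in microglia-like cells. It was below them in young EC-K4KO, so its ratios that involve that library support no difference either. Mylk, with at most 5.08 CPM in microglia-like cells, was above them in every library. With the small cluster included, Acta2 was at -2.23 (-2.55 to -1.92) in the old pair and at -3.04 (-3.35 to -2.75) for old over young EC-K4KO. In microglia-like cells 4 of 4 tested genes were higher by 1.5-fold in the young pair, against 2.33% of 8182 genes, with Acta2 at 0.61 (0.20 to 1.04). Myl9, on 14 UMIs or 7.07 CPM in young WT Cre, was tested through its 27.1 CPM in young EC-K4KO, and this count supports no difference either. The sums of microglia-like and astrocyte-like cells had the order of the mural UMI shares over the 4 libraries, and those of endothelial-like cells did not, with or without the small cluster. The part of free RNA and of joined cells was not tested further.

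In 3 other classes single genes stood out. Ependymal-like cells of old WT Cre (113 cells), which bear motile cilia, had 628 CPM of Acta2, 283 of Tagln and 28.1 of Cnn1, but 0 UMIs of Myh11, Des and Pln. Oligodendrocyte-like cells had Smtn at 3.30%, 7.72% and 6.42% of its smooth muscle-like level in young WT Cre, old WT Cre and old EC-K4KO, where the medians of the 10 genes were 0.106%, 0.0677% and 0.0355%. Fibroblast-like cells were few (46, 59, 39 and 28), and their Tagln ranged from 14.1 CPM in old EC-K4KO to 1028 CPM in old WT Cre.

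The rest of the contractile pathway was read in smooth muscle-like cells from lists of genes. Of all genes tested, 3.12% were past 1.5-fold between the young libraries, 7.76% between the old ones, 10.2% between ages of WT Cre and 11.1% between ages of EC-K4KO, and with so few genes in a list a count of 1 or 2 is near these shares. Of 18 other contractile and cytoskeletal genes, 1 was past 1.5-fold in the young pair, Actg2, the enteric smooth muscle actin, at 0.70 (0.52 to 0.88). In the old pair Actg2 at -0.90 (-1.20 to -0.61) and Itga8, an integrin of smooth muscle, at -0.74 (-1.10 to -0.41) were past it. Actg2 was at 106 CPM for young WT Cre, 171 for young EC-K4KO, 151 for old WT Cre and 80.8 for old EC-K4KO, the same order as Cnn1 and, like it, a leading gene of 1 of the 2 smooth muscle-like clusters. For old over young, 0 of 18 passed in WT Cre and 2 of 18 in EC-K4KO, both lower, Actg2 at -1.08 (-1.36 to -0.82) and Itga8 at -0.73 (-1.06 to -0.43). The lowest of the remaining genes in WT Cre was Synm, the intermediate filament protein synemin, at -0.41 (-0.54 to -0.28), and the highest was Pgm5, a protein of adhesion plaques, at 0.57 (0.11 to 1.05).

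Of the 23 genes of calcium and contraction signalling, 22 were tested, and 1, 1, 1 and 0 passed 1.5-fold in the young pair, the old pair, and the age comparisons in WT Cre and EC-K4KO. Ryr2, the calcium release channel of the sarcoplasmic reticulum, was at 45.6 CPM in young WT Cre and at 70.5, 76.2 and 76.2 CPM in the other libraries, a log2 ratio of 0.62 (0.36 to 0.90) in the young pair and of 0.74 (0.43 to 1.06) for old over young WT Cre. Cacna1c, the L-type calcium channel of the arterial wall, was at 65.1, 54.6, 45.3 and 70.1 CPM, highest at 0.63 (0.25 to 1.00) in the old pair. Among the regulators, Myocd, the coactivator named above, was at 86.7, 84.5, 66.9 and 71.5 CPM and Srf at 23.6, 23.6, 16.7 and 21.4 CPM, neither past 1.5-fold in any pair. Heyl, a target of Notch signalling, was at 148, 156, 90.7 and 90.9 CPM, lower in both age comparisons at -0.70 (-0.93 to -0.48) and -0.77 (-1.04 to -0.52). Of 15 and 14 regulators tested for age, 2 and 1 were lower by 1.5-fold, against 6.36% and 5.13% of all genes, the other being Elk1, a serum response factor partner, at -0.94 (-1.78 to -0.17) in WT Cre.

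Genes of the switch away from the contractile state gave no single direction. Of 12, 7 were tested, and 3 were higher and 1 lower by 1.5-fold in the young pair, against 1.06% and 2.06% of all genes, with S100a4 highest at 1.02 (0.62 to 1.47) and Ly6a lowest at -1.13 (-1.35 to -0.90). In the old pair 0 were higher and 2 lower, against 4.51% and 3.25%, with Fn1, the matrix protein fibronectin, at -1.82 (-2.21 to -1.45). For age, 3 were higher and 1 lower in WT Cre, against 3.8% and 6.36%, and 0 were higher and 3 lower in EC-K4KO, against 5.94% and 5.13%, with Fn1 at -1.81 (-2.19 to -1.46). Ly6a, which endothelial cells of the brain also express, was at 88.4, 40.4, 21.2 and 22.7 CPM. Beside it, the 8 endothelial markers summed to 579, 273, 128 and 127 CPM in smooth muscle-like cells and the 7 fibroblast markers to 222, 218, 161 and 126 CPM, and their part in these ratios was not tested.

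The genes whose levels followed the 10 most closely were sought over 24 points, 6 classes in 4 libraries, among 2841 genes. The mean standardised profile of the 10 correlated at a Pearson r of 0.986 with Mustn1, itself a marker used to call smooth muscle-like cells, 0.976 with Dhx58os, 0.969 with Rbm24, 0.967 with Ppp1r12a, 0.966 with Flna, 0.961 with Cmss1, 0.960 with Pde3a and 0.959 with Uba2. Ppp1r12a encodes the targeting subunit of myosin phosphatase, Flna the actin cross-linker filamin A and Pde3a a cyclic nucleotide phosphodiesterase. The 10 genes themselves ran from 0.864 for Smtn to 0.988 for Myh11. Points of 1 class share their cells' identity and points of 1 library its depth and free RNA, and 4 of the 24 points set the profile, so r is a description of class contrast.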

How the data were processed

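Single-cell RNA-seq of brain cells was analysed in 4 libraries, WT Cre and EC-K4KO at the young and the old age. The deposited values are raw UMI counts per gene and barcode in matrices that the authors made with Cell Ranger, version 6.0.2 per the file headers. The submitters' processing notes name Cell Ranger, Seurat, mm10 and GRCm38. The barcodes number 26422, more than the study analysed, and its cell filter is not given in the sources used here.

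Barcodes were kept from 500 genes and 1000 UMIs upward, with a mitochondrial share up to 10%. The highest Scrublet scores, 0.8% of cells for every 1000 cells, were removed as doublets (977 cells), since the automatic threshold marked too few. Cells of all libraries were clustered together on 2000 variable genes, without the 10 genes and the 18 other contractile and cytoskeletal genes, with 30 principal components, 20 neighbours and Leiden resolution 1 (scanpy 1.11.5, leidenalg 0.10.2, python 3.11.15, numpy 2.4.6, scipy 1.17.1, pandas 2.3.3, matplotlib 3.10.9). Clusters were named from markers of 18 classes, none of them among the 10 genes. A name needed at least 3 markers and 50% of the class's markers, each at 20 CPM or more and at 25% or more of its highest cluster, with 1 among the 20 leading genes. A cluster whose 10 leading genes held more markers of another class stayed unnamed. These rebuilt names can differ from the study's.

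UMIs were summed by class and library and given as CPM. Intervals are 95% exact Poisson for levels, exact conditional binomial for ratios and Clopper-Pearson for shares, and cover counting error only. Ratios of the genes named are of the sums as counted, the comparison over all genes adds 0.5 UMIs to each sum, and 3 counts are the limit for a count of 0. Genes that averaged 10 CPM or more were compared, and 1.5-fold was the size counted. Shares were taken after thinning cells to 1000 UMIs. With 1 library per group, no test was run. The text names all 10 genes, the genes with the highest and lowest ratio of each list, Klf4 and the 8 most alike genes of at least 50 CPM, and other genes were chosen after their values were seen. The members and lists were chosen with earlier results of these data known. The step that takes ratios and counts genes past the fold was tested on simulated sums with changes larger than 1.5-fold. The other steps were not. Alternatives changed the cell filter, doublet removal, clustering, variable genes, class calls, scaling, thinning, fold and minimum level.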

Additional observations from a re-analysis of the deposited data

Results flagged for a closer look

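Several genes had a ratio of EC-K4KO over WT Cre of opposite sign in the young and the old libraries. Genes are listed where the counting intervals of both ratios lay on opposite sides of no change. Each age holds 1 library per genotype label, and the difference was not tested. In smooth muscle-like cells Cnn1 had a log2 ratio of 0.32 for the young libraries and -0.23 for the old ones, a difference of -0.56 (old minus young, as below). For Des it was -0.17 and 0.14, a difference of 0.31. For Acta2 it was 0.03 and -0.12, for Tagln 0.02 and -0.13, each a difference of -0.15, and for Myl9 0.06 and -0.06, a difference of -0.12. The young ratio of the summed genes changed sign without doublet removal and among cells as called that passed the stricter filter. Of 40 ratios of single genes in smooth muscle-like cells, 34 and 30 kept their sign in those settings. The old pair of Cnn1 had opposite signs in the 2 smooth muscle-like clusters, 0.47 in the one led by Rasl11a and -0.29 in the one led by Actg2. In the cluster led by Rgs5 the ratio of Smtn was -0.36 and 0.99, a difference of 1.35. In pericyte-like cells the ratio of Myl9 was 0.23 and -0.27, a difference of -0.50.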

How the results depend on the processing

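Values are in the order young WT Cre, young EC-K4KO, old WT Cre, old EC-K4KO for levels, and young pair, old pair, old over young WT Cre and old over young EC-K4KO for log2 ratios; where fewer are printed, the pair is named. No paired analysis was possible because each group holds 1 library, the groups share only replicate number 1 and no test was run, and no replicate could be left out. Counting the cluster led by Rgs5 with the smooth muscle-like cells, taking each smooth muscle-like cluster alone, splitting the cluster led by Rgs5 at the median pericyte marker share, leaving out the small endothelial-like cluster, and applying the stricter filter to smooth muscle-like cells as called or leaving cells of the cluster led by Rgs5 out of the class under it were chosen after seeing the data. The stricter filter (1000 genes, 2000 UMIs, 5% mitochondrial) left no cluster that matched the one led by Rgs5, and calling single barcodes by marker UMIs gives no clusters, so these gave no values there. Under the stricter filter the smooth muscle-like class took in 37 of 81, 79 of 214, 45 of 209 and 12 of 80 cells from the cluster led by Rgs5, and it also took in cells of that cluster without doublet removal, at resolution 2, with the 10 genes among the variable genes and with barcodes called singly, so these settings changed the class as well. The setting with the 10 genes among the variable genes let the 18 other contractile and cytoskeletal genes back in too. The summed level of the 10 genes in smooth muscle-like cells became 43780.5, 43795, 47455 and 45198 CPM under the stricter filter, 52348, 47648, 51260.3 and 47618 for cells as called that passed it, 52182, 47648, 51260.3 and 47866 under it without cells of the cluster led by Rgs5, 57424, 55035, 52972 and 51199 without doublet removal, 53725, 56411, 52199 and 49822 with the 10 genes among the variable genes, 56428, 57986, 54407 and 52541.5 with barcodes called singly, 58223.5, 58309, 53187 and 50061 as a mean of per-cell CPM, 53521, 56298, 51725 and 49548.5 with the cluster led by Rgs5, 52107, 52206, 47036 and 42758 in the cluster led by Rasl11a, 67293, 69368, 65519.6 and 65981.5 in the cluster led by Actg2, and 57251, 59143 and 55140.0 in the first 3 libraries at resolution 2. The log2 ratio of that sum became 0.00047, -0.070, 0.12 and 0.045 under the stricter filter with the changed class, where both age ratios changed sign, -0.061, -0.049, -0.12 and -0.10 without doublet removal, where the young pair changed sign, 0.070, -0.067, -0.042 and -0.18 with the 10 genes among the variable genes, 0.039, -0.050, -0.053 and -0.14 with barcodes called singly, 0.0027, -0.14, -0.15 and -0.29 in the cluster led by Rasl11a, and 0.044, 0.010, -0.039 and -0.072 in the cluster led by Actg2. It became 0.047 (young pair) and -0.054 (age, WT Cre) at resolution 2, 0.0021 (young pair), -0.13 and -0.22 (both ages) as a mean of per-cell CPM, 0.045 (young pair), -0.12 (old pair) and -0.024 (age, WT Cre) with median-of-ratios size factors, 0.073, -0.062 and -0.049 (the same pairs) with the cluster led by Rgs5, and -0.20 (age, EC-K4KO) with the 10 genes left out of the total. For cells as called that passed the stricter filter it was -0.14 (young pair), -0.030 and -0.00093 (both ages), and under that filter without cells of the cluster led by Rgs5 -0.13, -0.026 and 0.0066. In the cluster led by Rgs5 the log2 ratio of the sum became -0.26, 0.041, -0.53 and -0.23 without doublet removal, -0.078, -0.16, -0.22 and -0.30 at resolution 2, -0.34, 0.16, -0.42 and 0.087 in cells above the median pericyte marker share, 0.035 (young pair), -0.15 and -0.29 (both ages) in cells at or below it, -0.092 (young pair), -0.15 and -0.15 (both ages) with the 10 genes among the variable genes, -0.26, -0.0069 and -0.66 (all but age, EC-K4KO) as a mean of per-cell CPM, and -0.16 (old pair) and -0.50 (age, EC-K4KO) with size factors. Genes past 1.5-fold in smooth muscle-like cells numbered 5761, 5410, 7523 and 9173 with no minimum level, against 241, 590, 781 and 848, and genes past 2-fold numbered 48, 93, 169 and 187. The median share of smooth muscle-like cells with a UMI became 98.3%, 98.3%, 96.3% and 94.8% at 2000 UMIs per cell. The pericyte-like sum became 2638 CPM (young EC-K4KO) and 2782 CPM (old WT Cre) without cells that held a smooth muscle marker UMI, and the endothelial-like sum 153, 232 and 129 CPM (first 3 libraries) without the small cluster. Of 40 ratios of single genes in smooth muscle-like cells, 28 kept their sign under the stricter filter, 30 for cells as called that passed it and 34 to 39 under the others. At most 2 passed 1.5-fold under any of them, namely Cnn1 for old over young WT Cre at 0.88 under the stricter filter, Des for old over young EC-K4KO at 0.68 for cells as called that passed it, Cnn1 in the young pair at 0.59 with the 10 genes among the variable genes, and, as a mean of per-cell CPM, Cnn1 for old over young EC-K4KO at -0.61 and Smtn for old over young WT Cre at -0.59. The cause of these shifts was not tested.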
